A study of Capra hircus and Bos taurus with 7 samples.

Results

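The miR-29 family was followed through the small RNAs of extracellular vesicles, small membrane-enclosed particles shed by cells, in reconstituted milk powders. Its members were chosen by name, as every mature microRNA (miRNA) row called miR-29 with a letter. This gave 6 of the 364 rows, namely bta-miR-29a, bta-miR-29b, bta-miR-29c, bta-miR-29d-3p, bta-miR-29d-5p and bta-miR-29e. The 7 libraries comprised 1 from a commercial bovine powder, 3 from skimmed goat powder (A to C) and 3 from whole goat powder (A to C). All were prepared from vesicles separated by size exclusion chromatography. The labels do not say whether the letters mark separate packs, batches or repeat isolations, so a p-value here reflects library-to-library spread alone, which could be technical. Nor do they say that the skimmed and whole powders came from the same milk.

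The miR-29 miRNAs are small conserved RNAs that share a seed, the short stretch near the 5′ end that pairs with target mRNAs. In mammals they are known for repressing collagens, elastin and other matrix genes, and the DNA methyltransferases DNMT3A and DNMT3B. In cultured dairy cow mammary epithelial cells the family has been linked to DNA methylation, and bovine miR-29b has been followed in people after milk intake. In human and mouse the family is made from a pair of clusters, with miR-29a beside a copy of miR-29b and miR-29c beside another copy. A RefSeq table of goat genes (assembly ARS1.2) listed 3 symbols of the family, MIR29A, MIR29B and MIR29C. There MIR29B and MIR29C lay on the same chromosome with 1 listed gene between them, and MIR29A lay on a different chromosome.

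Library totals ran from 5675489 to 11963849 miRNA reads. Levels are given in CPM, the reads of a row per 1000000 miRNA reads of its library, where 3 reads correspond to 0.251 to 0.529 CPM. Whole goat library C held the most reads and the bovine library the fewest. Markers of mammary epithelium, the 6 rows of miR-200a, miR-200b, miR-200c, miR-141, miR-429 and miR-375, summed to 106318 CPM in the bovine library and 98381 to 113777 CPM in the goat libraries. In such bulk samples, fewer cells or vesicles of a type and less RNA in each cannot be told apart.

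The family as a whole was a minor part of the miRNA reads of the milk powder vesicles. Its 6 rows summed to 2890 CPM in the bovine library. They summed to 1753, 2236 and 2757 CPM in skimmed goat libraries A, B and C, and to 2568, 2092 and 3576 CPM in whole goat libraries A, B and C. The bovine library lay inside the goat range, and the skimmed and whole libraries overlapped. These sums are 0.289% of the bovine miRNA reads and 0.175% to 0.358% of those of the goat libraries.

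Most of these reads belonged to bta-miR-29a, which in human and mouse is made from the same cluster as a copy of miR-29b. Its level was 2291 CPM in the bovine library. In skimmed goat powder it stood at 1408, 2024 and 2381 CPM in libraries A, B and C. In whole goat powder the values were 2306, 1749 and 3152 CPM. The lowest value came from skimmed A and the highest from whole C, and the groups overlapped. By mean over the 6 goat libraries miR-29a held place 50 of the 364 rows, and its place was 41 in the bovine library. Its neighbours in that order were miR-98 and miR-125b above it, at 2280 ± 499.6 and 2208 ± 757 CPM, and miR-30b-5p and let-7e below it, at 2028 ± 556 and 2025 ± 478 CPM (SD, n = 6). The mean of miR-29a was 2170 ± 601 CPM (SD, n = 6). These 4 were picked as the nearest rows by mean, so their closeness to it follows from that choice.

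The cluster partner in both human and mouse clusters, bta-miR-29b, was lower by more than an order of magnitude in most goat libraries. It reached 372 CPM in the bovine library. The skimmed goat libraries had 162, 61.7 and 143 CPM (A, B and C), and the whole goat libraries 151, 133 and 208 CPM. Skimmed B stood lowest of all, with 511 estimated reads, and the bovine library stood above all 6 goat libraries. In place by level, miR-29b came 76th in the bovine library and 104th to 148th in the goat libraries.

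The levels of bta-miR-29c, the other less abundant member, were near those of miR-29b in goat. It had 225 CPM in the bovine library. It had 108, 148 and 209 CPM in skimmed goat libraries A, B and C, and 95.03, 180 and 198 CPM in whole goat libraries A, B and C. The lowest values were those of whole A and skimmed A, so that both powders held low and high libraries. By mean, miR-29c (156 ± 47.2 CPM) and miR-29b (143 ± 47.8 CPM; SD, n = 6 each) held places 108 and 111 in goat and differed by less than the spread between libraries. The nearest rows by mean were miR-411c-5p above miR-29c, miR-655 and miR-106b between the members, and miR-6715 below miR-29b.

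**Figure D1:**
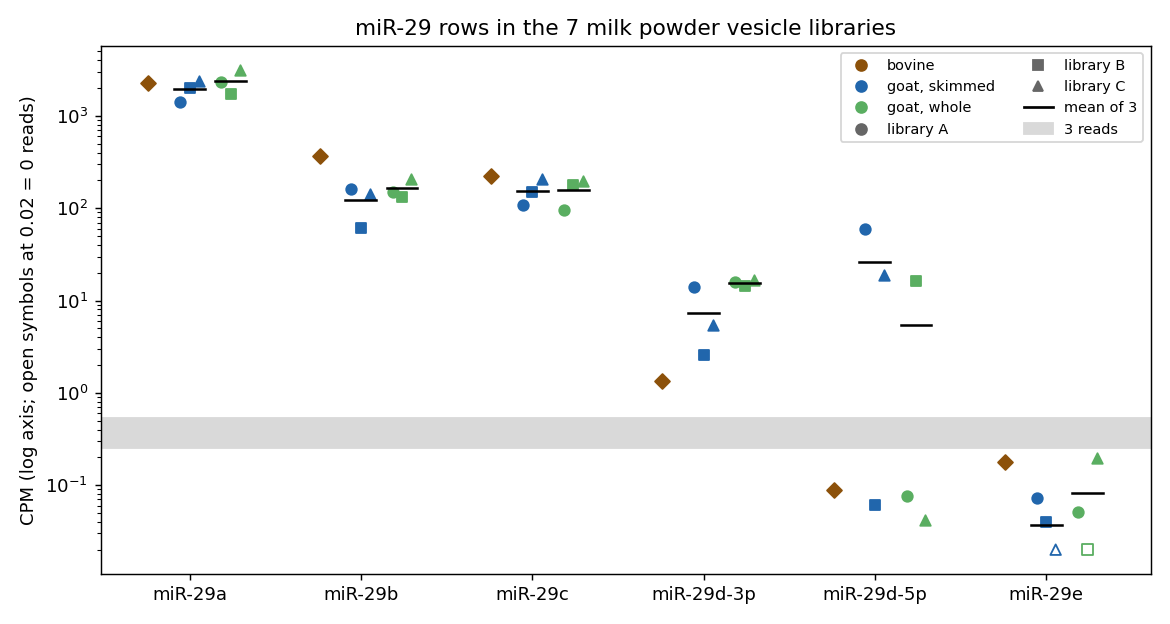
Level of the 6 miR-29 rows in each library, in CPM on a log axis, for the bovine library, the 3 skimmed and the 3 whole goat libraries; black lines are means of 3 libraries and the grey band is the level of 3 reads (0.251 to 0.529 CPM). miR-29a lies between 1408 and 3152 CPM in every library, miR-29b and miR-29c between 61.7 and 372 CPM, and the miR-29d and miR-29e rows far lower.

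Of the remaining rows, bta-miR-29d-3p was present at a low level. It had 1.33 CPM in the bovine library, from 7.57 estimated reads. Skimmed goat libraries A, B and C had 14.2, 2.56 and 5.43 CPM, and whole goat libraries A, B and C had 15.8, 14.3 and 16.9 CPM. All 3 skimmed libraries lay below all 3 whole libraries, but the nearest pair, skimmed A and whole B, had 95% Poisson intervals of 11.9 to 16.9 CPM and 12.1 to 16.8 CPM. The bovine library lay below the goat range, although its interval of 0.609 to 2.78 CPM met that of skimmed B, at 1.57 to 3.87 CPM. Such intervals cover counting error only, because reads copied by PCR without molecular identifiers are not independent molecules.

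Reads of bta-miR-29d-5p, the opposite arm of the miR-29d hairpin and thus without the family's seed, were near 0 in 4 libraries and well above it in 3. The bovine library, skimmed B, whole A and whole C had 0.5 estimated reads each. Skimmed A and skimmed C had 558.5 and 152 reads, and whole B had 164.5 reads. Both goat powders therefore held libraries with and without it, and the level reached 60.1 CPM in skimmed A. In the 4 libraries at 0.5 reads the level was below the 3 reads taken as a floor. The last row, bta-miR-29e, had 1 read in the bovine library, 0.667, 0.333 and 0 reads in the skimmed goat libraries, and 0.333, 0 and 2.33 reads in the whole goat libraries. It lay under 3 reads throughout and is not described further.

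The split of the family between its members differed between libraries. The share of miR-29a was 79.3% in the bovine library (95% exact Clopper-Pearson interval 78.7% to 79.9%). It was 85.7% ± 5.11 in skimmed and 87.2% ± 3.22 in whole goat powder (SD, n = 3 each). The share of miR-29b was 12.9% in the bovine library (interval 12.4% to 13.4%), against 5.74% ± 3.28 in skimmed and 6.02% ± 0.295 in whole goat powder (SD, n = 3 each). In the goat libraries it was 2.76% in skimmed B and 9.25% in skimmed A, and the 3 whole libraries lay between 5.83% and 6.36%. For miR-29c the share was 7.80% in the bovine library, 6.79% ± 0.706 in skimmed and 5.94% ± 2.47 in whole goat powder (SD, n = 3 each). Here the whole libraries spread more, with 3.70% in whole A and 8.59% in whole B.

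**Figure D2:**
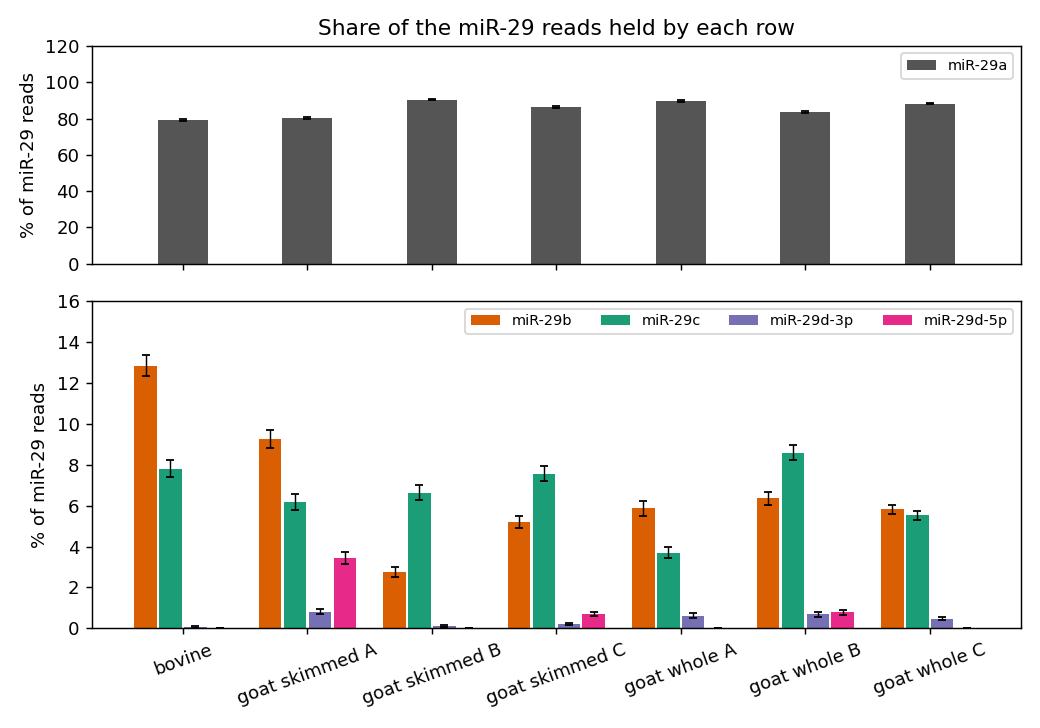
Share of all miR-29 reads of a library, in percent, taken by miR-29a (upper panel) and by miR-29b, miR-29c and both miR-29d rows (lower panel, other scale); error bars are 95% exact binomial intervals and cover counting error only. miR-29b takes 12.9% in the bovine library and 2.76% to 9.25% in the goat libraries.

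The balance of miR-29b and miR-29c turned between libraries. The ratio of miR-29b to miR-29c was 1.65 in the bovine library. It was 1.496, 0.416 and 0.688 in skimmed goat libraries A, B and C, and 1.59, 0.740 and 1.05 in whole goat libraries A, B and C. So 3 of the 6 goat libraries had more miR-29b and 3 had more miR-29c, with both cases in each powder. The bovine ratio was the highest, but it was near those of whole A and skimmed A. No interval was computed for these ratios. The ratio of miR-29a to miR-29b was 6.16 in the bovine library and 8.69 to 32.8 in the goat libraries, with the highest value in skimmed B.

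Skimmed goat powder was then compared with whole goat powder. The labels do not say that both came from the same milk, so removal of fat cannot be told apart from other differences. No miR-29 row passed the test. In edgeR's quasi-likelihood test on 209 tested miRNAs, 1 miRNA passed an adjusted p of 0.05, or 0.478% of those tested, and 0 of the 5 tested miR-29 rows did. That miRNA, miR-25, is named for being the single call; without skimmed B, skimmed C or any 1 whole library the count of calls was 0. None of these 5 had an unadjusted p under 0.05, as 22 of the 209 had. DESeq2's Wald test gave an adjusted p to 71 miRNAs and called 13 of them (18.3%). Of the family it gave an adjusted p to miR-29a alone (0.61), and limma-voom called none of the 3 main members. Skimmed and whole libraries did not overlap in CPM for 42 of the 209 tested miRNAs (20.1%), and in the family for miR-29d-3p alone.

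For miR-29a the means were 1938 ± 492 CPM in skimmed and 2402 ± 707 CPM in whole powder (SD, n = 3 each). The log2 fold change was -0.23 ± 0.25 (SE), with a 95% interval of -0.81 to 0.35 and an adjusted p of 0.92 in edgeR. This interval does not reach a 2-fold change in either direction, but without skimmed C it was -1.07 to 0.27, which holds a 2-fold lower level in skimmed powder. The sign of that value rested on whole C, the library with the highest miR-29a level, without which it was 0.05 (edgeR adjusted p = 0.996).

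Less could be seen for the other members. The means of miR-29b were 122 ± 53.4 CPM in skimmed and 164 ± 39.4 CPM in whole powder (SD, n = 3 each). Its log2 fold change of -0.33 ± 0.69 (SE) had an interval of -1.90 to 1.25 and an adjusted p of 0.96 in edgeR. Without skimmed B, the library with the lowest miR-29b level, the log2 fold change was -0.00225. The means of miR-29c were 155 ± 50.5 CPM in skimmed and 158 ± 54.9 CPM in whole powder (SD, n = 3 each), with a log2 fold change of 0.06 ± 0.63 (SE), an interval of -1.40 to 1.52 and an adjusted p of 0.97 in edgeR. Both intervals hold a 2-fold change in either direction. For both members the SE was larger than the median of 0.24 over the 126 miRNAs with at least 100 CPM in goat. Most of those miRNAs were more abundant than these members. The rows nearest to them by mean had SEs of 1.10 (miR-411c-5p), 0.75 (miR-655), 0.65 (miR-106b) and 0.81 (miR-6715). limma-voom gave SEs of 0.56 for miR-29b and 0.50 for miR-29c.

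In the 2 low rows the fitted values were wide. The log2 fold change of miR-29d-3p was -0.97 ± 1.42 (SE), with an interval of -4.22 to 2.29 and an adjusted p of 0.96 in edgeR. An exact two-sided permutation test on its log2(CPM + 1) gave p = 0.1, the smallest that 3 libraries against 3 allow; the same test gave 0.5 for miR-29a, 0.5 for miR-29b and 1.0 for miR-29c. The log2 fold change of miR-29d-5p was 2.46 ± 2.84 (SE), with an adjusted p of 0.92 in edgeR. Over the 14 alternatives that gave it a value it ran from 0.91 without skimmed A to 10.94 without whole B, the libraries with the most reads of it in their powders.

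**Figure D3:**
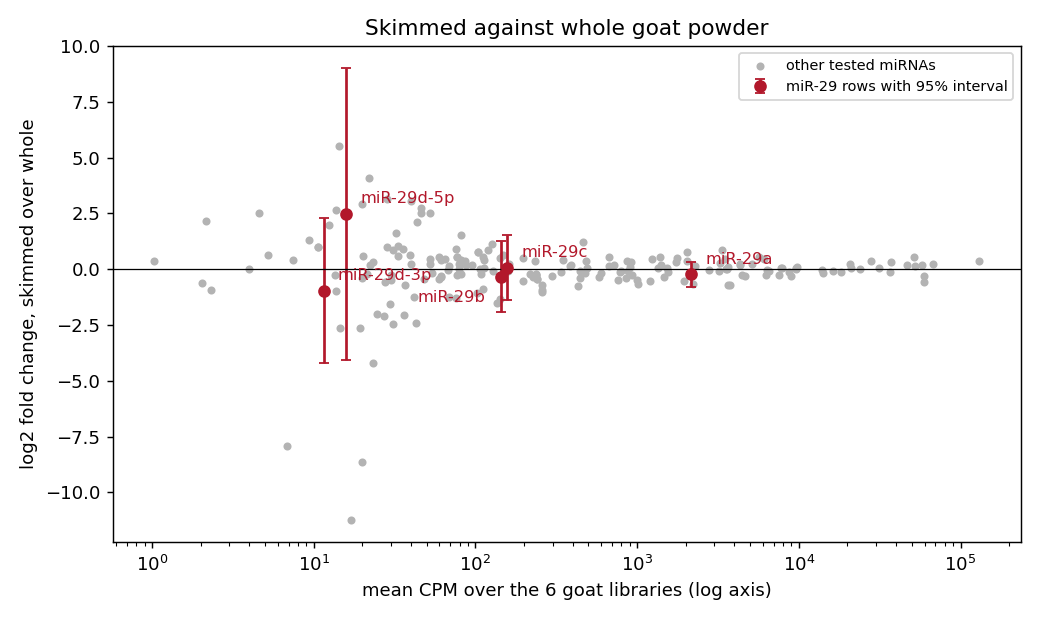
Log2 fold change of skimmed over whole goat powder (edgeR) against the mean level over the 6 goat libraries on a log axis, for the 209 tested miRNAs; the 5 tested miR-29 rows are red with 95% intervals. All 5 intervals include 0, and that of miR-29a is the narrowest of them, from -0.81 to 0.35.

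Lists of miRNAs reported to act on DNA methyltransferases, DNMT1 included, or in fibrosis and matrix control were set beside the family. Whether they share targets with miR-29 was not tested. A list of miRNAs reported to target DNA methyltransferases held 9 names, of which 8 were matched and 7 tested, and 0 were called higher or lower by edgeR or by DESeq2. The median log2 fold change was 0.01 for this list and 0.03 for all 209 tested miRNAs. Its most abundant rows were miR-148a, a repressor of DNMT1 that is abundant in milk, at 53245 ± 9007 CPM in skimmed and 51331 ± 11554 CPM in whole powder, followed by miR-342 and miR-143. A list of miRNAs reported in fibrosis or matrix control held 20 names, with 17 matched and 16 tested. edgeR called 0 of the 16, and their median log2 fold change was 0.10. DESeq2's Wald test, which called 18.3% of the 71 miRNAs it gave an adjusted p, called miR-200c, miR-30b-5p and miR-30c higher and miR-30a-5p lower in skimmed powder, 4 members. The most abundant rows of this list were miR-21-5p, a miRNA that rises in many fibrotic tissues, at 51906 ± 9773 CPM in skimmed and 66912 ± 6311 CPM in whole powder, followed by miR-30a-5p and miR-30d (SD, n = 3 each).

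Markers of other cells were measured in the same libraries. The 5 leukocyte rows (miR-223, miR-142-3p, miR-142-5p, miR-150 and miR-155) summed to 3156 to 3379 CPM in skimmed and 2749 to 2869 CPM in whole goat powder. The 3 stromal and endothelial rows that were matched of 5 names summed to 1690 to 2458 CPM in skimmed and 1487 to 1654 CPM in whole powder. The 1 matched erythroid row, miR-486, had 15.6 to 38.6 CPM in skimmed and 23.6 to 72.8 CPM in whole powder. The epithelial rows summed to 104518 to 113777 CPM in skimmed and 98381 to 103738 CPM in whole powder. The epithelial, leukocyte and stromal sums were each higher in all 3 skimmed than in all 3 whole libraries. Among single miRNAs, 20.1% of the 209 tested did not overlap between the powders. The stromal and endothelial sum was mostly miR-143, at 2038 ± 387 CPM in skimmed and 1510 ± 36.7 CPM in whole powder (SD, n = 3 each). The part of these sums in the miR-29 values was not tested. Single rows went both ways, with a skimmed over whole log2 fold change above 0 in 3 of 6 tested epithelial, 2 of 4 tested leukocyte and 1 of 2 tested stromal and endothelial rows. edgeR called 0 of these rows, against 0.478% of the 209 tested miRNAs. DESeq2's Wald test called miR-200c, miR-375 and miR-223 higher and miR-141 lower in skimmed powder. It called 18.3% of the 71 miRNAs to which it gave an adjusted p. None of the marker rows was under 1 read in all goat libraries.

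The 3 main members were compared by their pattern over the 6 goat libraries. Likeness was measured as the root mean square difference of log2(CPM + 1), each row centred on its own mean, over 125 other miRNAs with at least 100 CPM. Between miR-29a and miR-29c it was 0.41, and miR-29c was the 40th most similar row to miR-29a. Between miR-29a and miR-29b it was 0.56, and between miR-29b and miR-29c it was 0.67. The median over the 125 rows was 0.49 for miR-29a, 0.62 for miR-29b and 0.55 for miR-29c. Thus miR-29b and miR-29c, whose goat genes are near neighbours in the RefSeq table, lay farther from each other than the median row lay from either.

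The most similar rows were other miRNAs. For miR-29a they were miR-21-5p (0.19), miR-148a (0.23) and miR-148b (0.23). For miR-29b they were miR-15b (0.22), miR-335 (0.39) and miR-369-3p (0.40). For miR-29c they were miR-660 (0.22), miR-494 (0.30) and miR-22-3p (0.31). In skimmed B, where miR-29b was lowest, miR-29b stood -1.12 from its own mean on this log2 scale. There miR-15b stood at -1.10, miR-369-3p at -1.02 and miR-335 at -0.40 from their own means. All 3 were picked for likeness over these same libraries, so a match at this point follows from that choice. The values of 1 library share its depth and its total, and these are descriptions over 6 libraries with no test. The coefficient of variation over the goat libraries was 27.7% for miR-29a, 33.4% for miR-29b and 30.2% for miR-29c, against a median of 24.4% over 126 miRNAs. Of those 126, 51 were more variable than miR-29a, 41 more than miR-29b and 49 more than miR-29c.

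**Figure D4:**
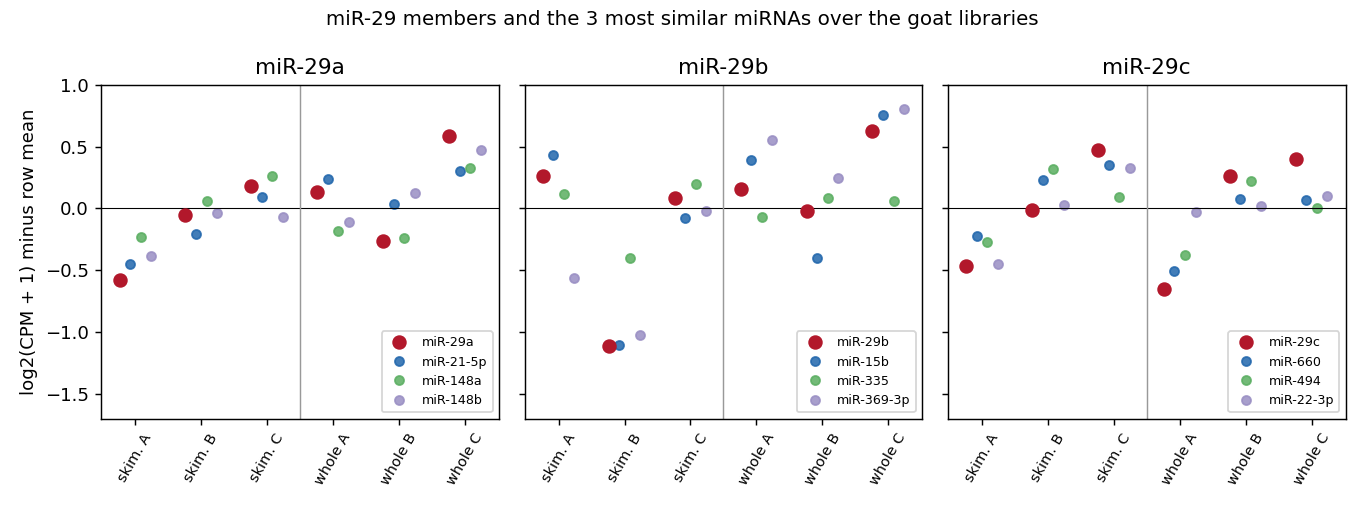
Log2(CPM + 1) minus the row's own mean in the 3 skimmed and the 3 whole goat libraries, for miR-29a, miR-29b and miR-29c (large red points) and the 3 most similar miRNAs of each. In skimmed B miR-29b stands at -1.12, miR-15b at -1.10 and miR-369-3p at -1.02, and picking rows by likeness favours such a match. In that library miR-29a (-0.05) and miR-29c (-0.02) have no such low point.

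The bovine powder was set against the goat powders with no test, since it had 1 library, and species, product and library cannot be told apart. The level of miR-29a in bovine was 2291 CPM (95% Poisson interval 2252 to 2331), against 2170 ± 601 CPM in goat (SD, n = 6), a ratio of 1.06. It lay inside the goat range of 1408 to 3152 CPM. By contrast miR-29b was 2.60-fold higher in bovine, at 372 CPM (interval 356 to 388), against 143 ± 47.8 CPM in goat and a highest goat value of 208 CPM. For miR-29c the ratio was 1.44, with 225 CPM in bovine (interval 213 to 238), just above the highest goat value of 209 CPM, in skimmed C, whose own 95% interval of 199 to 219 CPM overlapped it.

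These ratios were read against the 125 miRNAs whose mean over the 7 libraries reached 100 CPM. Of these, 58.4% were at least 2-fold from the goat mean in either direction, and 14.4% were at least 2-fold higher in bovine. The median ratio was 0.601. Within the family 1 of the 3 main members, miR-29b, was at least 2-fold higher, and it held place 13 of the 125 by ratio. The bovine library lay outside the goat range for 82.4% of the 125 miRNAs, and for miR-29b and miR-29c of the 3 members, so that lying outside was the usual case. Leaving out any 1 goat library kept the miR-29b ratio between 2.33 (without skimmed B) and 2.86 (without whole C). Every goat library lay below the bovine library, so leaving out 1 could not bring the levels together. The spread between bovine libraries is unknown, so this does not show how firm the ratio is.

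**Figure D5:**
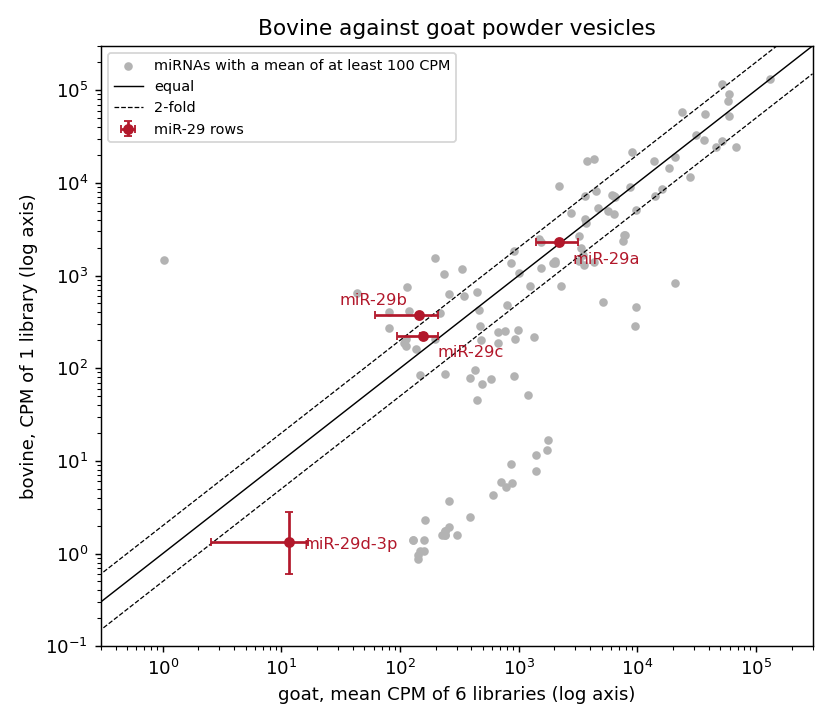
Level in the bovine library against the mean of the 6 goat libraries, in CPM on log axes, for the 125 miRNAs whose mean reached 100 CPM and for the miR-29 rows (red; horizontal bars are the goat range, vertical bars the 95% Poisson interval). miR-29a lies on the line of equal levels, miR-29b above the 2-fold line at 372 CPM, and miR-29d-3p below the lower 2-fold line at 1.33 CPM.

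The low miR-29d-3p was lower in bovine, at 1.33 CPM against 11.5 ± 5.98 CPM in goat (SD, n = 6). It lies under the 100 CPM asked of the 125 miRNAs, so no share over all miRNAs was computed for rows this low. The rows nearest to it in goat mean were miR-432, miR-345-3p, miR-664a and miR-9851. They stood at 0 to 0.18 CPM in bovine, lower than miR-29d-3p, though other rows of about that goat level were higher in bovine. Among those 125 the median ratio was 0.601, so a lower bovine level was the usual case there. The ratio of miR-29c to miR-29d-3p was 169 in the bovine library, from 7.57 estimated reads of miR-29d-3p, and 6.01 to 57.9 in the goat libraries. The rows of miR-29c and miR-29d-3p had the same fractional part (within 1e-05) in 3 of the 7 libraries, and no other pair of miR-29 rows did in any. Fractions can arise when a read that matches several entries is divided between them. The sources used here do not state how reads were split within this family of near-identical members, so the values of single members are uncertain. Marker levels also differed between bovine and goat, with the leukocyte rows at 105 CPM in bovine against 2749 to 3379 CPM in goat, and 2 of the 5 under 1 read in bovine. The stromal and endothelial rows stood at 17.2 CPM in bovine against 1487 to 2458 CPM in goat, and 1 of the 3 was under 1 read in bovine. Their part in the miR-29b and miR-29d-3p differences was not tested.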

How the data were processed

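Per the labels' protocols, total RNA of the vesicles was isolated by kit, made into gel-purified small RNA libraries, and read from one end over 50 bases. The deposited tables hold estimated counts per mature miRNA under bovine names, not normalized, with 36.9% to 46.7% of values above 0 being whole numbers (within 1e-06). The sources used here name no aligner, counter, miRNA reference or build, nor how goat reads that differ from bovine sequences were treated. No coordinates are given for that reason.

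CPM was computed here over all 364 rows. For tests, estimated counts were rounded. Skimmed and whole goat libraries were compared with edgeR 4.0.16 in R 4.3.3 (default low-count filter, TMM factors 0.928 to 1.067, quasi-likelihood test, Benjamini-Hochberg adjustment over 209 miRNAs); an SE is the log2 fold change divided by the square root of F. DESeq2 1.42.0, limma-voom 3.58.1, other scalings and filters, a replicate block and leaving out each goat library were alternatives. The fit was tested on simulated data. Recovery of planted changes was scored there only for miRNAs more abundant than miR-29b, miR-29c and the miR-29d rows, so it does not cover those rows. No library was a copy of another of its powder, since their counts gave a chi-square of 497 to 1642 per degree of freedom.

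Members, lists and tests were chosen with earlier results of these data known. Named miRNAs are the members, the neighbours by goat mean CPM, the 3 most similar rows, and the 3 most abundant of each list, besides members of marker lists and of counts. Names of a list without a matching row were not analysed here.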

Additional observations from a re-analysis of the deposited data

How the results depend on the processing

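The number of miRNAs called between skimmed and whole powder was 1 with the stated settings. It was 0 with a replicate block, with let-7a-5p left out, and under each of 3 other scalings (library totals, upper quartile, DESeq2 size factors). It was 2 with no filter on low counts, 4 with only miRNAs of at least 100 CPM and 13 with DESeq2's Wald test, and 0 to 1 when a goat library was left out (1 only without skimmed A). None of these calls was a miR-29 row. The log2 fold change of miR-29a ran from -0.45 to 0.05 over the 6 fits that leave out a library, and turned sign without whole C (0.051). That of miR-29c ran from -0.21 to 0.29 over those fits, and was -0.024 with library totals, -0.088 with upper-quartile scaling and -0.052 with limma-voom; the cause was not tested. With the letter as a replicate block the log2 fold changes were -0.21 for miR-29a, -0.42 for miR-29b and 0.09 for miR-29c, and no call was gained. Libraries with the same letter correlated at -0.09 (A), 0.07 (B) and 0.37 (C) in their deviations from the powder mean over 126 miRNAs. Between different letters the values ran from -0.26 to 0.16. Deviations from a mean of 3 libraries depend on each other, so these values cannot decide whether the letters pair libraries. The labels do not say that they do, and the main test used no block. Over the alternatives run, the bovine-to-goat ratio lay between 0.987 and 1.16 for miR-29a and between 1.34 and 1.54 for miR-29c. The mean goat share of miR-29a lay between 85.6% and 87.7%. Most of these alternatives left out 1 goat library, which cannot move a mean of 6 by more than their spread. They therefore do not test how firm the ratios and shares are. The row of miR-29e lay under 3 reads in every library, so its level could not be compared. With 3 libraries a powder, the edgeR intervals of miR-29b and miR-29c held a 2-fold change in either direction. Their SEs of 0.69 and 0.63 were larger than the 0.25 of the more abundant miR-29a. The rows between them in goat mean had SEs of 0.75 (miR-655) and 0.65 (miR-106b), and the cause was not tested.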
